A study of Mus musculus with 8 samples.

Results

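Glycosyltransferases of glycoprotein glycans were taken as every gene of the deposited table whose symbol opens with 1 of 10 stems. These were St6gal, and St3gal, St8sia, B4galt, B3galt, B3gnt, Fut, Galnt, Gcnt or Mgat followed directly by a digit, so that Galntl5, Galntl6 and B3gntl1 were not members. They were 80 of 24059 genes. The rule itself used names and no measured value, but it was chosen with earlier results of these data known. RNA was sequenced from the caput epididymis, the part of the duct nearest the testis, of C57BL/6N mice aged 14 weeks. There were 4 wild-type (WT) libraries and 4 libraries from Nell2-/- animals (Nell2-KO). NELL2 is a secreted protein made in the testis that acts on the epididymis through the lumen. Nell2 itself had 0 reads in every library of both genotypes, so its own counts in this tissue could not check the labels. The labels do not say whether each library is a separate animal, so p-values measure the spread between these libraries.

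Glycoprotein glycans are built in the endoplasmic reticulum and Golgi by enzymes that each add 1 kind of sugar in 1 linkage. O-glycans start when a GALNT enzyme puts N-acetylgalactosamine on serine or threonine, and GCNT enzymes then branch the chain. N-glycans arrive as a preassembled block that MGAT enzymes branch after trimming. Both kinds are lengthened by B4GALT, B3GALT and B3GNT enzymes and capped with fucose by FUT enzymes or with sialic acid by ST3GAL, ST6GAL, ST6GALNAC and ST8SIA enzymes. Epididymal epithelium secretes heavily glycosylated proteins, and sperm surface glycans are remodelled during passage through the duct. Of the 80 symbols, 77 were protein coding in GENCODE M21. Fut4-ps1 is a pseudogene and St8sia3os an antisense RNA. The symbol B3gnt1 has been used for more than 1 gene and was not resolved here. Some members act mainly on glycolipids or proteoglycan linkers, among them St3gal5, B4galt6, St8sia1, B3galt6 and B4galt7.

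Total gene counts were 2073811 to 2517387 in WT and 801112 to 6256204 in Nell2-KO. Nell2-KO replicate 1 was the shallowest library. Its counted reads were 30.8% of the estimated total behind its RPKM, against 55.9% to 64.3% in the other libraries. Levels below are CPM, read counts scaled to a common library size after TMM normalisation. A count of 3 corresponded to 0.461 to 4.26 CPM, the highest value being that of Nell2-KO replicate 1. Caput principal cell markers summed to 99944 to 109995 CPM in WT and 101811 to 124899 CPM in Nell2-KO, sums carried mostly by Gpx5 and Adam7. Of the 8, all tested, 4 fell (Cst11 by 47.7-fold, Crisp1 by 12.7-fold, Ly6g5c by 8.75-fold and Adam7 by 1.5-fold) and Lcn5 rose by 3.69-fold. Initial segment markers, from the stretch nearest the efferent ducts, summed to 31178 to 37748 CPM in WT and 1276 to 1573 CPM in Nell2-KO, and 11 of 11 tested fell. In these bulk samples, fewer cells of a type and less RNA per cell cannot be told apart. The initial segment markers and the 4 caput markers that fell went the same way as the falls described below. Gpx5, Defb41 and Rnase9 were not called. In WT replicate 2, Lcn5 was at 228 CPM and Rnase9 at 42.9 CPM. The other WT libraries had 1582 to 1789 CPM and 1026 to 1318 CPM of these genes. The part of any of these markers in the falls or rises described below was not tested.

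Of the 80 members, 43 had enough reads to be tested. The largest falls were in enzymes of O-glycan branching and sialylation, Gcnt4 by 472-fold and St3gal2 by 62.6-fold. The rises were smaller, led by Gcnt1 at 2.54-fold, Fut1 at 2.48-fold and St6gal1 at 2.39-fold. EdgeR's quasi-likelihood test, with Benjamini-Hochberg adjustment over 11062 genes and a threshold of 0.05, called 15 members lower and 8 higher in Nell2-KO. These were 34.9% and 18.6% of the tested members, beside 8.71% and 6.24% of all genes tested. Called in either direction were 53.5% of tested members and 15.0% of all genes. Groups did not overlap for 27 tested members, or 62.8%, beside 22.1% of all genes. Of these, 11 were higher, beside 9.51% of all genes, and 16 lower, beside 12.6%. Falls of at least 8-fold were called in 5 members, beside 1.64% of all genes, and rises of that size in 0 members, beside 0.0181%. The median log2 fold change was -0.21 over the tested members and 0.03 over all genes. Passing the read filter can itself depend on a high group, and the members were chosen with earlier results known. These shares therefore describe tested members only.

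**Figure D1:**
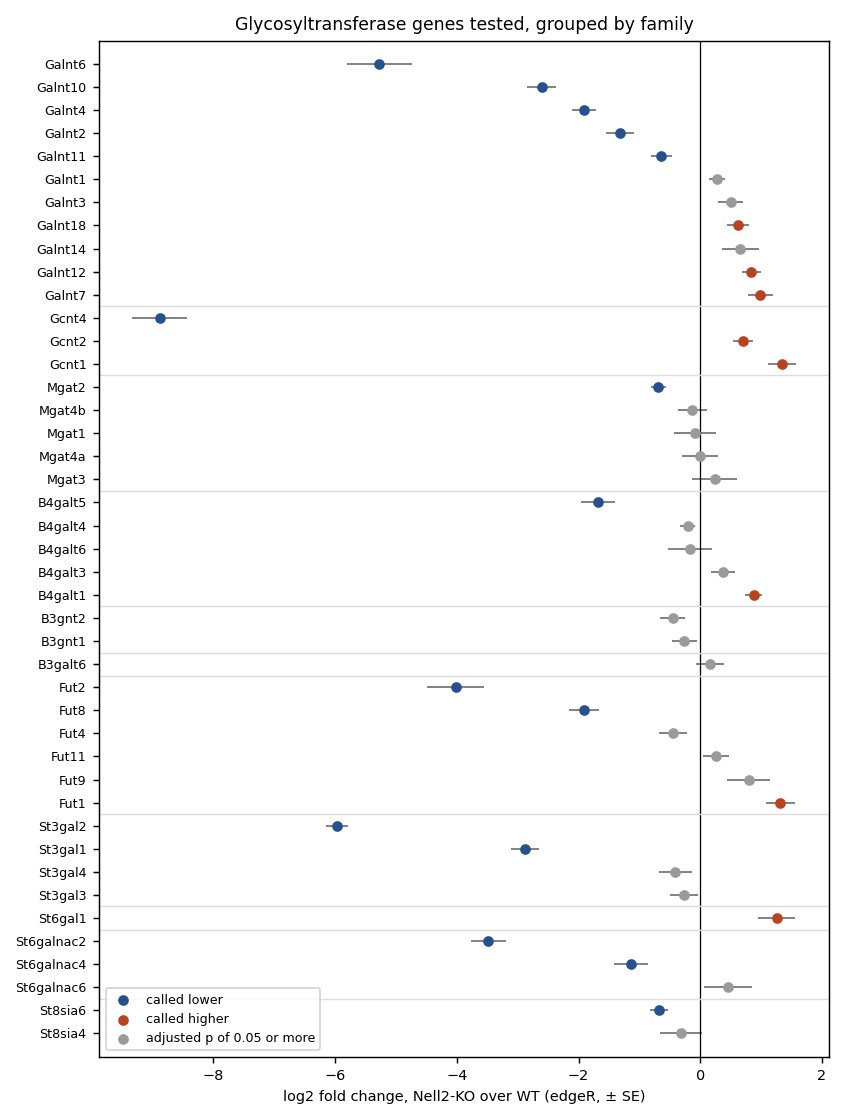
Log2 fold change (Nell2-KO over WT) with its standard error for the 43 tested members, grouped by enzyme family; blue points were called lower, red points called higher and grey points had an edgeR adjusted p of 0.05 or more. The values run from -8.88 for Gcnt4 to 1.35 for Gcnt1.

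**Figure D2:**
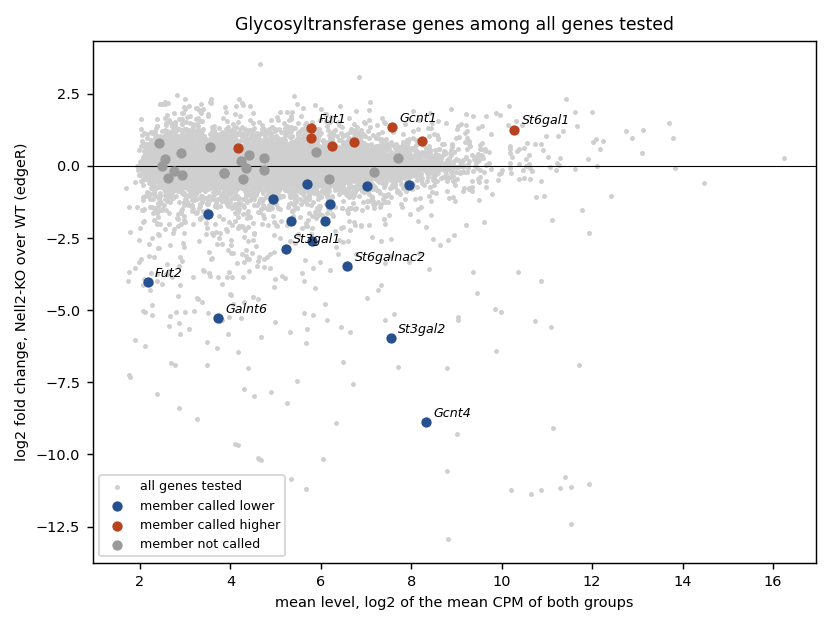
Log2 fold change against the log2 of the mean CPM of both groups for all 11062 tested genes (small grey points), with the 43 tested members as larger points, blue where called lower, red where called higher and dark grey where not called. Members lie on both sides of 0, and 5 of the called ones lie at least 8-fold lower.

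Among the branching enzymes of O-glycans, Gcnt4 nearly disappeared while Gcnt1 and Gcnt2 rose. GCNT1 and GCNT4 both make the core 2 branch on O-GalNAc chains, and GCNT2 makes the branched I antigen on poly-N-acetyllactosamine. Gcnt4 (mm10 chromosome 13, 96924689 to 96950906, plus strand) was at 595, 764, 629 and 577 CPM in WT and at 8.51, 1.47, 0.614 and 0.906 CPM in Nell2-KO. Every Nell2-KO library was far below the lowest WT library, with Nell2-KO replicate 1 above the other 3. The log2 fold change was -8.88 ± 0.45 (SE; edgeR adjusted p = 7.68e-08), from 5596 reads in WT and 17 in Nell2-KO. Gcnt1 (chromosome 19, 17326141 to 17372844, minus strand) was at 93.2, 89.8, 114 and 128 CPM in WT and 416, 222, 197 and 259 CPM in Nell2-KO. The groups did not overlap, and Nell2-KO replicate 1 was again the highest. Its log2 fold change was 1.35 ± 0.23 (edgeR adjusted p = 0.00165). Gcnt2 rose from 57.5 ± 4.63 to 94.1 ± 16.7 CPM (SD, n = 4 each; log2 fold change 0.69 ± 0.16, edgeR adjusted p = 0.0124). Gcnt3 had 0 reads.

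Levels of different genes were set side by side per kilobase, with the gene length implied by the authors' count and RPKM values. The library totals this needs were estimated, as a median over genes, with the longest GENCODE M21 transcript of each gene. On that scale Gcnt4 held 80.2 ± 3.6% of the Gcnt sum in WT and 0.6 ± 0.7% in Nell2-KO, and Gcnt1 held 14.5% and 79.7%. The Gcnt sum itself was 156 ± 14.3 CPM per kb in WT and 71.5 ± 21.9 CPM per kb in Nell2-KO. The gain in Gcnt1 was thus smaller than the loss of Gcnt4 on this scale.

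The start regions of Gcnt4 and Galnt6, both lower, and of Gcnt1 and Fut1, both higher, are shown because these were among the largest changes in each direction with a window in the RefSeq promoter table. Windows run from 250 bases before to 50 bases after a RefSeq start (GRCm38.p6), on the gene's strand, at chr13:96924094-96924393, chr15:100729327-100729626, chr19:17372795-17373094 and chr7:45617356-45617655 in that order. Capitals mark AGGAAG or CCGGAA on either strand, cores bound by ETS-type factors.
Gcnt4: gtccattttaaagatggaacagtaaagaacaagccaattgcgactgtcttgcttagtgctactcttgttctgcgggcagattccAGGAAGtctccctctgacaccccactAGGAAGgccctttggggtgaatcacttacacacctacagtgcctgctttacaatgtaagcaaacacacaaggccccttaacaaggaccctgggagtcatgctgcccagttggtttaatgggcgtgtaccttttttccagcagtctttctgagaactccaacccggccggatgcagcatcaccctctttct
Galnt6: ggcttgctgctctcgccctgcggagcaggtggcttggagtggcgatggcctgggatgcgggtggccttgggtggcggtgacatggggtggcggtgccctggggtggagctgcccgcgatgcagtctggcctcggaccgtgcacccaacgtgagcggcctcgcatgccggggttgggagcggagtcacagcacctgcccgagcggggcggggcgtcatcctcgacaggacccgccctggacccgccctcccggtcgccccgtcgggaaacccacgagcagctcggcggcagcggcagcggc
Gcnt1: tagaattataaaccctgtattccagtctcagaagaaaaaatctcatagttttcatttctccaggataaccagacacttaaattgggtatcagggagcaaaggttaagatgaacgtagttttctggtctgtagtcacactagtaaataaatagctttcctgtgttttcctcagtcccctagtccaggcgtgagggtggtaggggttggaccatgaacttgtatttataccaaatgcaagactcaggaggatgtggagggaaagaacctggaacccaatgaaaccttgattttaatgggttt
Fut1: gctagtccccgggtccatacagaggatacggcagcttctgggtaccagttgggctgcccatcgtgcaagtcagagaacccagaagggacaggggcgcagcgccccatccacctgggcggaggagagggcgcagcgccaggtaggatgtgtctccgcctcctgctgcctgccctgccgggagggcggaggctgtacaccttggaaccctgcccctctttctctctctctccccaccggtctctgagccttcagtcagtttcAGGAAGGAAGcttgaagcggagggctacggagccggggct
Gcnt4 has AGGAAG at separate places, and in Fut1 the matches overlap. Neither core is in the Galnt6 or Gcnt1 window shown, each from the outermost start. Gcnt1 has 3 windows in the table, and the other two hold 3 AGGAAG matches each. The second windows of Galnt6 and Gcnt4 hold neither core. RefSeq and GENCODE starts differ for Gcnt4 and Fut1. The Gcnt4 window shown ends before the GENCODE start at 96924689, which the second Gcnt4 window (96924463 to 96924762) spans. The Fut1 window shown begins after the GENCODE start at 45617289. Windows were found for 29 of 43 tested members and 15 of the 23 called. Called members without one were Fut2, Galnt12, Galnt18, Galnt2, Galnt4, St3gal1, St3gal2 and St6galnac2. At least 1 core was in 5 of 15 windows of members called lower, in 7 of 12 windows of members called higher and in 10 of 17 windows of members not called. Several windows can belong to 1 gene. By gene, a core was found in 4 of 9 lower, 5 of 6 higher and 8 of 14 members not called. The share over all 32851 windows of the table was 45.2%. AGGAAG alone was in 35.4% of all windows and CCGGAA in 14.9%. The hexamer TGTTCT of steroid receptors, searched on both strands, was in 19.0% of all windows. It was in 4 of 15 windows of lower members (3 genes). For higher members it was in 2 of 12 windows, and for members not called in 2 of 17. These matches describe letters only.

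The enzymes that start O-glycans moved in both directions. Of 16 Galnt members, 11 were tested, 5 fell and 3 rose. Galnt6 was at 28.0, 19.2, 28.9 and 23.4 CPM in WT and 2.84, 2.93, 0.154 and 0.181 CPM in Nell2-KO, with log2 fold change -5.27 ± 0.53 (edgeR adjusted p = 2.43e-05) from 220 and 8 reads. Galnt10, which prefers peptides that already carry a sugar, was at 98.3, 80.9, 117 and 88.7 CPM in WT and 7.10, 24.2, 13.8 and 16.3 CPM in Nell2-KO (log2 fold change -2.60 ± 0.24, edgeR adjusted p = 1.14e-05). In neither gene did the groups overlap.

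Galnt4, another enzyme that extends partly glycosylated peptides, was at 62.0, 65.1, 67.1 and 58.4 CPM in WT and fell to 18.4, 25.7, 13.7 and 14.3 CPM in Nell2-KO (log2 fold change -1.91 ± 0.20, edgeR adjusted p = 3.5e-05). It overlaps Poc1b on the same strand, with means of 12.8 CPM (WT) and 11.1 CPM (Nell2-KO; edgeR adjusted p = 0.461). Galnt2, a broadly acting initiator, fell from 107 ± 13.0 to 40.6 ± 16.4 CPM (log2 fold change -1.32 ± 0.23, edgeR adjusted p = 0.00211). Galnt11, known for glycosylating Notch and LDL receptor family proteins, went from 64.2 ± 8.63 to 39.6 ± 9.43 CPM (edgeR adjusted p = 0.0315), a call lost when any of 5 libraries was left out, with adjusted p up to 0.12 without WT replicate 1.

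Galnt7, a follow-on enzyme that needs a prior sugar, rose from 35.9 ± 7.77 to 73.4 ± 20.5 CPM (log2 fold change 0.98 ± 0.21, edgeR adjusted p = 0.00698). Galnt12 rose from 76.1 ± 13.4 to 136 ± 10.5 CPM (0.84 ± 0.15 on the log2 scale, edgeR adjusted p = 0.00271). Galnt18 went from 14.3 ± 2.10 to 21.8 ± 1.67 CPM (edgeR adjusted p = 0.0344), a call lost without any of 6 libraries, with adjusted p up to 0.142 without Nell2-KO replicate 3. Galnt1 was at 189 ± 3.97 and 229 ± 33.6 CPM, and Galnt3 at 48.1 ± 4.64 and 70.9 ± 23.1 CPM; neither passed the test (edgeR adjusted p = 0.222 and 0.132). Per kilobase Galnt1 exceeded Galnt12 in WT, at 46.3 and 34.2 CPM per kb, while in Nell2-KO their means were 56.2 and 61.0 CPM per kb, with Galnt12 above Galnt1 in replicates 2, 3 and 4. The Galnt sum was 200.5 ± 14.7 CPM per kb in WT and 202 ± 10.6 CPM per kb in Nell2-KO, so the sums overlapped while the makeup differed. Galnt12 held 17.0% of it in WT and 30.2% in Nell2-KO, and Galnt10 10.1% and 1.6%. Galnt5 had 0 reads.

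**Figure D3:**
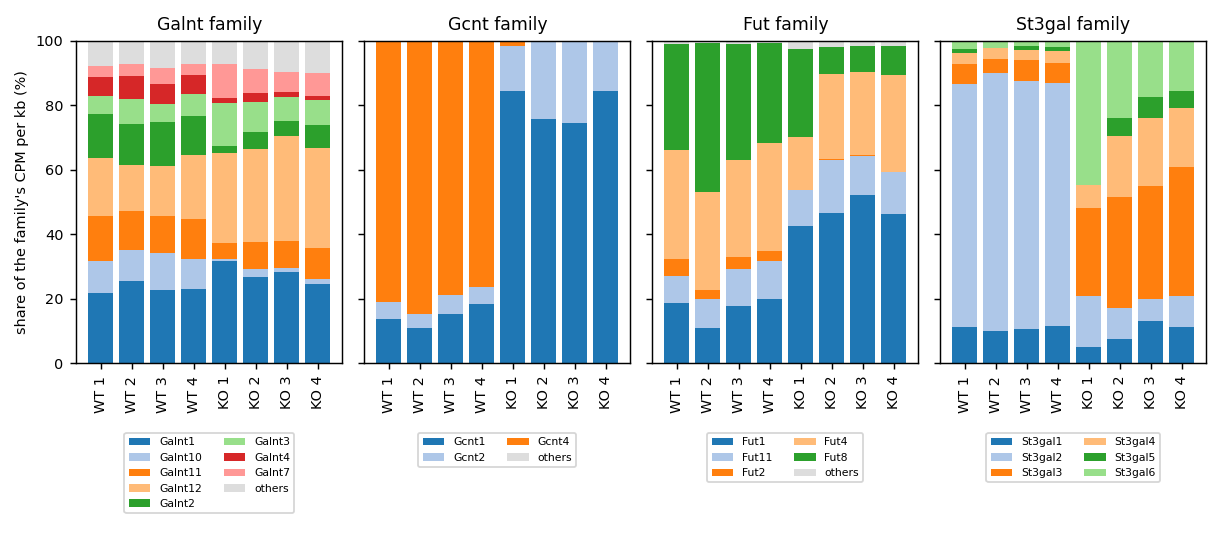
Share of each member in its family's summed level per kilobase (percent) for the Galnt, Gcnt, Fut and St3gal families, with 1 stacked bar per library. On average Gcnt4 held 80.2% of its family in WT and 0.6% in Nell2-KO, and St3gal2 76.9% and 10.5%.

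Among the N-glycan branching enzymes a single fall was called. Of 8 Mgat members, 5 were tested and Mgat2 alone was called. MGAT2 adds the N-acetylglucosamine that turns a hybrid into a complex N-glycan. Mgat2 was at 152, 172, 165 and 158 CPM in WT and 86.6, 105, 106 and 100.2 CPM in Nell2-KO, without overlap (log2 fold change -0.69 ± 0.13, edgeR adjusted p = 0.00256). Mgat1, which acts before it, was at 22.2 ± 7.29 and 18.5 ± 10.5 CPM (edgeR adjusted p = 0.914). Mgat5, whose branch carries long N-acetyllactosamine chains, was too low for the test, at 6.07 ± 2.07 and 2.46 ± 0.755 CPM, with groups that did not overlap. Without the read filter it was called (edgeR adjusted p = 0.035). Mgat5b had 0 reads.

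Among the chain-extending enzymes B4galt1 rose and B4galt5 fell. B4galt1, the main galactosyltransferase that makes N-acetyllactosamine, was at 227, 182, 234 and 208 CPM in WT and 436, 403, 389 and 339.8 CPM in Nell2-KO. All Nell2-KO libraries exceeded all WT libraries (log2 fold change 0.88 ± 0.14, edgeR adjusted p = 0.00101). B4galt5, which with B4galt6 makes lactosylceramide, fell from 17.7 ± 4.63 to 4.85 ± 1.68 CPM (log2 fold change -1.68 ± 0.28, edgeR adjusted p = 0.00136). B4galt4 was at 155 ± 14.0 and 134 ± 7.76 CPM and was not called (edgeR adjusted p = 0.329). Of the 5 tested B4galt members, 1 rose and 1 fell.

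The 3 tested B3gnt and B3galt members, B3gnt1, B3gnt2 and B3galt6, were not called by edgeR. B3gnt2, which extends N-acetyllactosamine chains, had the lowest adjusted p of them at 0.177 (unadjusted 0.0462), with means of 22.4 and 16.2 CPM. B3gnt7, known for extending keratan sulfate chains, was untested, with means of 6.31 ± 1.67 CPM (WT) and 1.82 ± 0.917 CPM (Nell2-KO), and was called without the filter (edgeR adjusted p = 0.0156). B3galt1, named after its values were seen, was at 4.34, 10.4, 7.35 and 6.90 CPM in WT and 0, 0.733, 0.154 and 0.363 CPM in Nell2-KO. The groups were apart on 62 and 4 reads, and without the filter edgeR gave an adjusted p of 1.06e-05. Without the filter 9.72% of 18185 genes were called.

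The fucosyltransferases that make the H antigen moved apart. FUT1 and FUT2 both add fucose to terminal galactose in the same linkage, and their genes lie 27531 bases apart on chromosome 7 with Izumo1, Mamstr and Rasip1 between them. Fut1 (45617289 to 45621059, plus strand) was at 38.3, 17.8, 33.3 and 38.6 CPM in WT and 53.9, 82.8, 87.7 and 87.7 CPM in Nell2-KO. Fut2 (45648591 to 45666394, minus strand) was at 12.2, 5.92, 8.82 and 7.35 CPM in WT and 0, 0.733, 0.768 and 0.181 CPM in Nell2-KO. Neither gene had overlapping groups, and they went in opposite directions. The log2 fold changes were 1.31 ± 0.23 for Fut1 (edgeR adjusted p = 0.00233) and -4.02 ± 0.46 for Fut2 (edgeR adjusted p = 7.77e-05, 77 and 7 reads).

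Fut8, which adds the core fucose of N-glycans, was at 104, 118, 104 and 93.3 CPM in WT and 53.9, 23.5, 20.3 and 25.9 CPM in Nell2-KO (log2 fold change -1.91 ± 0.25, edgeR adjusted p = 0.000236). Nell2-KO replicate 1 was the nearest to WT. Fut4 was at 85.2 ± 12.2 and 59.9 ± 21.7 CPM (edgeR adjusted p = 0.239), and Fut9 at 3.40 ± 1.03 and 7.31 ± 3.08 CPM (edgeR adjusted p = 0.175). Both make Lewis-type structures, and neither passed the test. Per kilobase, Fut8 held 36.6% of the Fut sum in WT and 13.2% in Nell2-KO, and Fut1 16.8% and 46.8%.

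**Figure D4:**
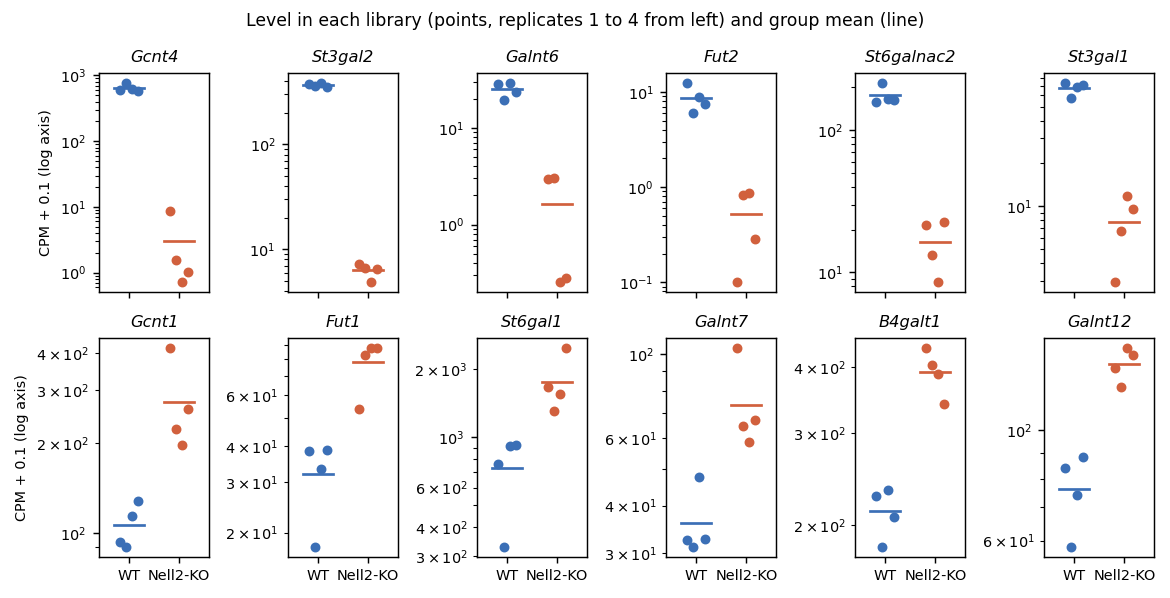
Level in each library (CPM + 0.1, log axis, scale differing between panels) of the 6 members with the largest called falls, top, and the 6 with the largest called rises, bottom; points are libraries and lines group means. In every panel the WT and Nell2-KO points do not overlap.

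Of the 10 tested sialyltransferases, 5 fell and St6gal1 alone was called higher. St3gal2 and St3gal1, which put alpha-2,3-linked sialic acid on the galactose of O-glycan core structures, both fell. St3gal2 (chromosome 8, 110919922 to 110972480, plus strand) was at 376, 358, 384 and 353 CPM in WT and 7.10, 6.60, 4.76 and 6.34 CPM in Nell2-KO. St3gal1 was at 73.0, 57.2, 68.6 and 70.8 CPM in WT and 2.84, 6.60, 11.7 and 9.43 CPM in Nell2-KO. The groups were far apart for both, with little spread among the St3gal2 libraries. The log2 fold changes were -5.97 ± 0.18 for St3gal2 (edgeR adjusted p = 3.89e-09) and -2.88 ± 0.23 for St3gal1 (edgeR adjusted p = 3.72e-06). St3gal3 and St3gal4 were not called (edgeR adjusted p = 0.521 and 0.38).

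St6gal1, which puts alpha-2,6-linked sialic acid on N-acetyllactosamine and had the highest level per kilobase of all members, was at 765, 329, 917 and 923 CPM in WT and 1670.3, 1299, 1557 and 2477 CPM in Nell2-KO. The groups did not overlap, and WT replicate 2 was the lowest (log2 fold change 1.26 ± 0.31, edgeR adjusted p = 0.0151). The call was lost without WT replicate 1 (adjusted p = 0.0512) or Nell2-KO replicate 1 (adjusted p = 0.0901). St6gal2 had 0 reads. The St3gal sum was 106 ± 5.74 CPM per kb in WT and 13.8 ± 2.63 CPM per kb in Nell2-KO. The ratio of St6gal1 to that sum was 1.42, 0.681, 1.70 and 1.82 in WT and 34.7, 17.4, 20.8 and 34.8 in Nell2-KO. Both parts of the ratio already lay apart in opposite directions, so its separation is no further result.

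**Figure D5:**
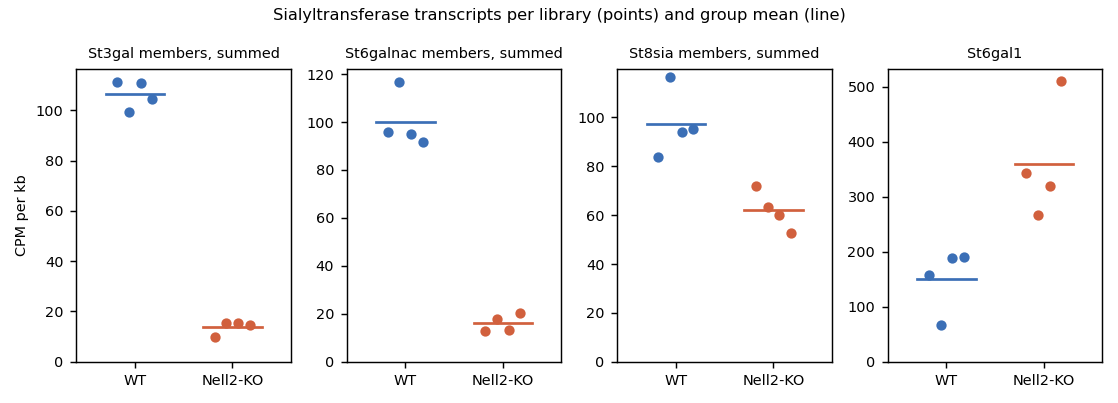
Summed level per kilobase (CPM per kb) of the St3gal, St6galnac and St8sia families and the level of St6gal1 in each library (points), with group means (lines). The St3gal sum averaged 106 in WT and 13.8 in Nell2-KO, while St6gal1 averaged 151 and 360.0.

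St6galnac2, which sialylates the first sugar of O-glycans, was at 159, 214, 166 and 164 CPM in WT and 21.3, 13.2, 8.44 and 22.5 CPM in Nell2-KO, without overlap (log2 fold change -3.48 ± 0.28, edgeR adjusted p = 3.84e-06). St6galnac4 went from 43.3 ± 8.71 to 18.1 ± 9.75 CPM (log2 fold change -1.14 ± 0.28, edgeR adjusted p = 0.0167). It ends 10 bases before St6galnac6 on the same strand, and its call was lost without WT replicate 1 (adjusted p = 0.0759), WT replicate 3 or Nell2-KO replicate 3. St8sia6, which adds sialic acid to sialic acid, was at 261, 365, 294 and 298 CPM in WT and 220.0, 196, 188 and 162 CPM in Nell2-KO (log2 fold change -0.68 ± 0.15, edgeR adjusted p = 0.00912). The fall was small beside that of St3gal2, and the groups did not overlap. St6galnac1, St6galnac5 and St8sia3os had 0 reads.

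The remaining untested members were low, with at most 122 reads over the 8 libraries, and 30 of the 37 untested had at least 1 read. Over the 20 tested members that were not called, log2 fold changes ran from -0.46 to 0.79. The summed level of all members was 1125 ± 48.6 CPM per kb in WT and 1027 ± 110 CPM per kb in Nell2-KO, with the mean difference within the spread of Nell2-KO libraries.

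Genes that supply and process these glycans were taken from 6 lists. Of 161 genes in all, 135 were tested, 3 rose and 13 fell, which is 11.9% against 15.0% of all genes. Gne and Nans, both needed to make sialic acid, fell from 144 ± 6.90 to 52.7 ± 5.68 CPM and from 198 ± 30.4 to 84.9 ± 14.6 CPM (edgeR adjusted p = 1.26e-05 and 0.000326). Cmas, which activates sialic acid, was at 40.4 and 39.7 CPM and Slc35a1, its Golgi transporter, at 52.6 and 44.2 CPM; neither was called (edgeR adjusted p = 0.955 and 0.322). With Gmppb, these made 3 falls among 28 tested nucleotide sugar genes. Of 34 tested genes for assembly of the N-glycan block, Tusc3, Stt3b and Rpn2, all parts of the oligosaccharyltransferase, fell, and of 22 trimming genes Edem1 fell.

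Of 26 tested genes for other glycosyltransferases 4 fell, with B4galnt4 going from 11.2 ± 3.23 to 0.747 ± 0.611 CPM (edgeR adjusted p = 3.07e-05). B4galnt2, which makes the Sda antigen, fell from 291 ± 51.5 to 173 ± 34.8 CPM (edgeR adjusted p = 0.0106), and B4galnt1 from 117 ± 29.9 to 61.6 ± 10.5 CPM (edgeR adjusted p = 0.00787). Gal3st4, which sulfates galactose on O-glycans and was the only sulfotransferase of 12 tested, rose from 36.0 ± 17.1 to 114 ± 31.4 CPM (edgeR adjusted p = 0.00519). Among 24 tested breakdown genes, Glb1l2 fell from 2453 ± 298 to 191 ± 65.5 CPM (edgeR adjusted p = 1.2e-06) and Ctsa also fell, and Nagk was among those that rose. The calls of Gmppb, Rpn2, Edem1, Ctsa and Nagk were each lost when any of at least 5 libraries was left out.

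Markers of other cells moved in part. Endothelial markers summed to 92.9 to 127 CPM in WT and 45.0 to 69.5 CPM in Nell2-KO, with 3 of 6 tested lower, and basal cell markers to 336 to 380 and 163 to 281 CPM, with 2 of 5 lower. Clear cell markers summed to 395 to 454 CPM in WT and 517 to 778 CPM in Nell2-KO, with 3 of 5 higher. Germ cell markers overlapped at 98.5 to 175 and 93.5 to 226 CPM, and macrophage markers at 124 to 160.3 and 65.3 to 130 CPM, with none called among 5 and 8. Smooth muscle markers summed to 1878 to 2111 CPM in WT and 891 to 1172 CPM in Nell2-KO. That sum fell through Actg2, from 1027 to 24.6 CPM, the only one of 8 tested that was called. The median log2 fold change of these markers was 0.02. Fibroblast markers summed to 1019 to 1088 CPM in WT and 671 to 1015 CPM in Nell2-KO, with 1 higher and 1 lower of 6. Here the sum fell through Pdgfra, from 521 to 122 CPM, while Dcn rose and the median log2 fold change was 0.24. Lymphocyte and erythrocyte markers were at most 3.67 CPM in sum in any library, with Ms4a1 at 0. The part of these shifts in the members' changes was not tested.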

How the data were processed

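Poly-A RNA was amplified linearly once, made into stranded libraries and read as single 36-base reads, per the labels' protocols. CASAVA 1.8.2, FastQC 0.11.2, Bowtie2 2.2.0 and mm10 are named per the submitters' processing notes; for the counting tool, its annotation and its use of strand the sources used here give nothing, so reads of overlapping and antisense genes cannot be told apart (11 of the 23 called members have a GENCODE exon on the other strand). The authors deposited raw counts per gene and RPKM per gene for each library. Counts were tested with edgeR 4.0.16 (R 4.3.3; TMM scaling, filterByExpr, robust quasi-likelihood fit, genotype as the only term) over 11062 genes, with Benjamini-Hochberg adjustment and a threshold of 0.05. On simulated counts the fit called 66% of true 2-fold changes and 99% of true 4-fold changes. The simulation gave all genes 1 common dispersion and set no library apart, unlike these data. It therefore does not give the share of changes missed here. RPKM served for gene lengths. These agreed between libraries within a ratio of 1.00479 over 5191 genes with 20 or more counts in every library. Such agreement follows from a fixed length per gene in the authors' RPKM and does not check the lengths. RPKM also served for limma 3.58.1 on log2(RPKM + 1) or log2(RPKM + 0.1). DESeq2 1.42.0, other scaling, no filter, a replicate block and libraries left out were the other alternatives. The SE of a log2 fold change was taken as its absolute value divided by the square root of the quasi-likelihood F. It therefore includes spread between libraries. A count of 3 was taken as the floor. Replicate libraries of a group differed beyond sampling noise and were counted separately. WT replicates 3 and 4 were the most alike, with a chi-square per degree of freedom of 1.29. The other pairs within a group had 2.07 to 17.6. An alternative summed these WT replicates as 1 sample. Named were all called members, the 10 highest per kilobase, those with groups apart at 10 or more counts per library on average, those at 0 reads, and up to 3 called genes per list and direction; a few uncalled genes and B3galt1 were added after their values were seen. The members and lists were chosen with earlier results of these data known. Some list genes are not reported here. Locations are from GENCODE M21 and promoters from RefSeq.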

Additional observations from a re-analysis of the deposited data

Results flagged for a closer look

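Among 58 groups of 4 libraries checked for the named members, 8 had a library far from the other 3 (a ratio of gap to range above Dixon's 95% critical value); chance flags about 1 in 20 groups. Nell2-KO replicate 1, the shallowest library, accounted for 3: Fut1 at 53.9 CPM with the others at 82.8 to 87.7 CPM, Fut8 at 53.9 CPM with the others at 20.3 to 25.9 CPM, and Gcnt4 at 8.51 CPM with the others at 0.614 to 1.47 CPM. In WT replicate 2, B4galt4 was at 176 CPM with the others at 146 to 150 CPM. St6galnac2 was at 214 CPM there with the others at 159 to 166 CPM. In WT replicate 3, Galnt7 was at 47.5 CPM with the others at 31.1 to 32.6 CPM. Galnt1 was at 195 CPM there with the others at 186.6 to 187.4 CPM, a small gap flagged because the others lay so close together. Gcnt2 was at 69.2 CPM in Nell2-KO replicate 4, below the other Nell2-KO libraries at 99.3 to 104 CPM.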

How the results depend on the processing

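No member called by the edgeR fit changed direction under any alternative run, 19 of 23 stayed called whichever single library was left out, and 10 stayed called under every alternative. With single libraries left out, members called higher ranged from 6 to 8 and lower from 14 to 18, all genes called higher from 443 to 1301 and lower from 748 to 1485, and genes of the 6 pathway lists called higher from 1 to 8 and lower from 8 to 23. Without Nell2-KO replicate 1 and WT replicate 2 together, 9 members were higher and 18 lower, with 1391 and 1694 of all genes and 8 and 27 list genes. With WT replicates 3 and 4 summed, 8 list genes were lower. Limma on RPKM with a pseudocount of 1 or 0.1 called 1 and 1 members higher and 10 and 9 lower, 64 and 49 of all genes higher and 504 and 410 lower, and 0 and 0 list genes higher and 5 and 4 lower; the median of all genes was -0.16 and -0.22 there against 0.03 in the edgeR fit, and the cause of the lost calls was not tested. Without Nell2-KO replicate 1, an alternative chosen after seeing the data, limma called 10 members higher and 14 lower, 1190 of all genes higher and 8 list genes higher, with a median of all genes of 0.08. Deviations of same-numbered libraries from their group means correlated at -0.278 to 0.171. Pairs of WT and Nell2-KO libraries with different numbers had -0.392 to 0.407. With 4 libraries per group these values cannot exclude a pairing. With the replicate block 7 members were higher and 13 lower, 436 of all genes higher and 8 list genes lower. Depth limits members near the floor, such as Fut2 and Galnt6 in Nell2-KO.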
